A study of Mus musculus with 4 samples.

Results

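The Rab GTPase genes were examined in H3K27ac ChIP-seq peak lists of mouse liver sinusoidal endothelial cells (LSECs), the fenestrated endothelium that lines the hepatic sinusoids. Members were the protein-coding genes whose symbol is Rab followed by a number and at most one lower-case letter, with or without a further digit. In the RefSeq gene table of GRCm38.p6 this gave 59 of 21887 protein-coding genes on chromosomes 1 to 19, X and Y. H3K27ac, acetylation of lysine 27 of histone H3, marks active promoters and enhancers, and the study profiled it to locate potential regulatory elements. The labels give 2 H3K27ac libraries of 1 condition, replicate 2 and replicate 3, with an input of the same number for each; peak lists were analysed here for the 2 H3K27ac libraries. The genotype, age and treatment of the mice behind these libraries were not given in the sources used here. The methods of the study take LSECs from *Col4a1* fl/wt mice with or without *Cdh5* CreERT2, a tamoxifen-inducible Cre driven by an endothelial promoter, and from mice that carry *dCas9-KRAB* together with it, without saying which of them gave this chromatin.

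Rab proteins are membrane-bound switches that direct vesicle traffic. In the GTP-bound state each Rab recruits effectors, such as tethers, motors and sorting complexes, to its own compartment. Exchange factors load the GTP, GTPase-activating proteins end the signal, and a GDP dissociation inhibitor returns the prenylated protein to the cytosol. LSECs are among the most actively endocytic cells of the body, and clear waste macromolecules from blood through scavenger receptors that pass along the early endosome, recycling and lysosomal routes that Rab proteins mark.

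The deposited lists held 26975 peaks for replicate 2 and 64498 for replicate 3. Sequencing depth was unknown, so the absence of a peak does not show the absence of the mark. With 2 libraries of 1 condition no test between samples was possible, and each value below is given for each library. The labelled cell type was checked against marker lists. All 17 LSEC markers (among them *Stab1*, *Stab2* and *Lyve1*) had a region shared by both libraries in the gene body or the 10 kb on each side, and 12 of the 17 were marked by both libraries at the 5′ end, within 1 kb of it. Over all protein-coding genes these shares were 58.5% and 44.5%. The same 5′ end count was 1 of 12 for hepatocytes (*Trf*), 1 of 10 for Kupffer cells (*Cd68*), 0 of 10 for stellate cells, 0 of 7 for cholangiocytes, 0 of 8 for lymphocytes and 0 of 10 for genes of tissues absent from liver. Shared regions in the wider window were nevertheless listed for 4 hepatocyte, 2 Kupffer cell, 2 stellate cell, 1 cholangiocyte, 3 lymphocyte and 3 other-tissue genes, and the part of such cells in the Rab values was not tested. For LSECs the study's methods name a selection with beads against CD146, and the purity reached in these libraries was not tested here.

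Most Rab genes carried H3K27ac in both libraries. A replicate 2 peak lay in the gene body plus 10 kb on each side (the window) of 48 of the 59 Rab genes (81.4%), beside 58.6% of all protein-coding genes. A replicate 3 peak was listed in 53 Rab windows (89.8%), beside 69.9% of all genes. Shared regions, merged stretches in which peaks of both libraries overlap by at least 1 bp, lay in 48 Rab windows (81.4%), beside 58.5% of all genes. All 125 replicate 2 peaks in Rab windows overlapped a replicate 3 peak, whereas 114 of the 273 replicate 3 peaks there (41.8%) overlapped one of replicate 2. Over the whole lists these shares were 99.2% and 37.7%, close to those in Rab windows. The replicate 3 peaks without a partner were the weaker ones, with a median fold enrichment over background of 6.49 and a highest value of 19.9, against a median of 30.4 for those with a partner.

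The Rab share was also above the background at the promoters. A replicate 2 peak lay within 1 kb of the 5′ end of 40 Rab genes (67.8%), beside 44.6% of all protein-coding genes, and a replicate 3 peak at 47 (79.7%), beside 54.0%. Overlapping peaks of both libraries marked the 5′ ends of the same 40 (67.8%), beside 44.5% of all genes. When overlaps had to span 50% of both peaks, 21 Rab genes (35.6%) were marked, beside 22.1%. The RefSeq promoter table lists a 5′ end for 48 of the 59 Rab genes; for the other 11 (*Rab2a*, *Rab4a*, *Rab7b*, *Rab18*, *Rab26*, *Rab27b*, *Rab30*, *Rab36*, *Rab37*, *Rab38* and *Rab44*) either end of the gene was accepted. Among those 48 the count was 35 (72.9%), beside 45.6% of the 17492 genes with a listed 5′ end, a subset chosen after the data were seen. Among the other 11 it was 5 (45.5%), near the 44.5% of all genes, and these include *Rab26* and *Rab37*, described below. No Rab gene had a 5′ end peak in replicate 2 alone, beside 0.0183% of all genes. In replicate 3 alone 7 Rab genes had one (11.9%), near the background of 9.42%. The median length of Rab genes was 23.2 kb, beside 17.2 kb over all protein-coding genes, and a longer window can hold more peaks. Per 100 kb of summed window length, Rab genes held 3.40 shared regions and all protein-coding genes 1.90. The sum gives the longest genes the most weight, so these rates do not correct for the gap between the medians.

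**Figure D1:**
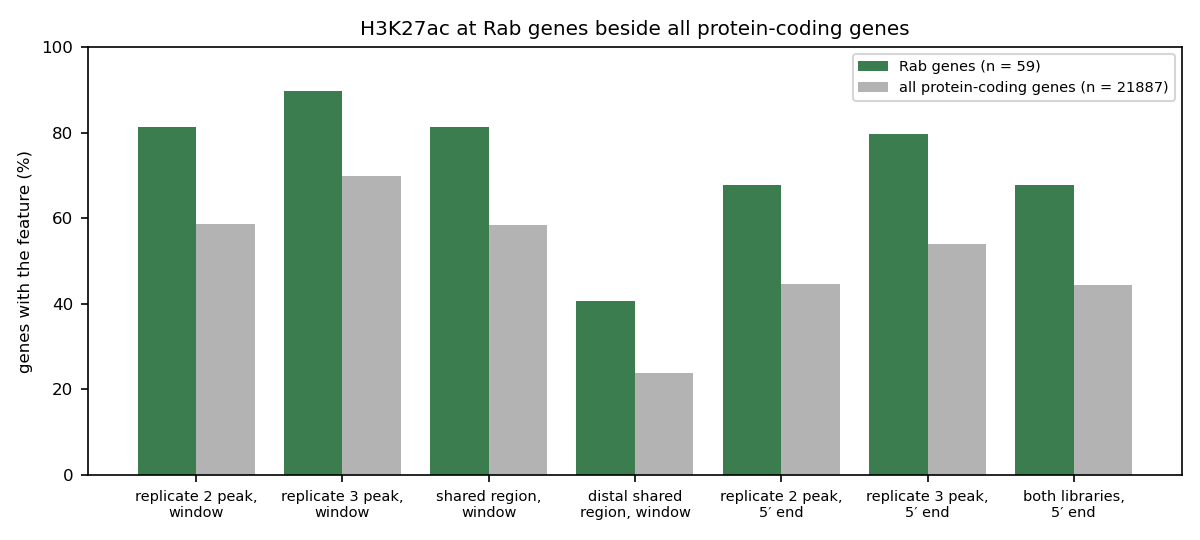
Share of genes (y axis, percent) with each H3K27ac feature (x axis) for the 59 Rab genes (green) and all 21887 protein-coding genes (grey). The Rab share is the higher in each of the 7 pairs, for example 67.8% beside 44.5% for peaks of both libraries at the 5′ end.

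The peaks at Rab 5′ ends were also strong ones. Over the 40 genes marked in both libraries, the strongest 5′ end peak had a median enrichment of 21.7-fold in replicate 2 and 60.3-fold in replicate 3, beside 16.3 and 47.1 over the 9748 protein-coding genes marked in both. Of the 40, 18 (45%) were in the top 10% of the whole list by fold enrichment in replicate 2 and 29 (72.5%) in replicate 3, beside 24.6% and 52.5% of those 9748 genes. The 18 were in the top 10% in both libraries. The range among Rab genes was wide, from 6.78 to 50.8 in replicate 2 and from 14.2 to 173.2 in replicate 3. The 5′ end value was the higher in replicate 3 at all 40, so a gene was placed by its percentile, the share of that library's peaks at or below its value.

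**Figure D2:**
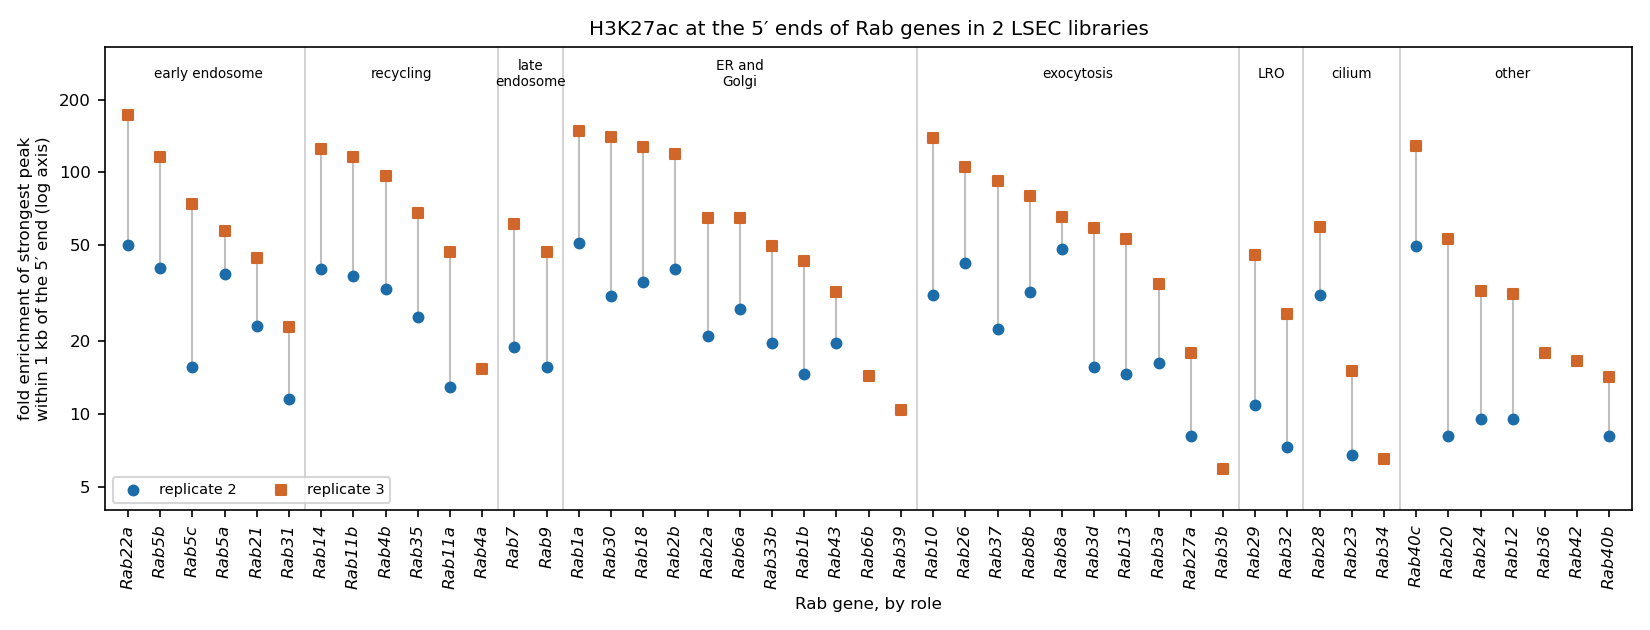
Fold enrichment (y axis, log scale) of the strongest peak within 1 kb of the 5′ end of each Rab gene with such a peak (x axis, grouped by role; LRO, lysosome-related organelles) in replicate 2 (circles) and replicate 3 (squares), with grey lines joining the libraries. The 7 genes with a square alone had no replicate 2 peak there, the 2 values of *Rab20* belong to different sites, and *Rab22a* and *Rab1a* reach the highest values, 173.2 and 147.8 in replicate 3.

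Each Rab gene was assigned to a single role group for this report, and the group counts depend on that assignment. All 6 genes placed in the early endosome group were marked at the 5′ end in both libraries, beside 44.5% of all genes. *Rab22a*, which acts in early endosomal sorting and recycling, came second in the family by the lower of its percentiles in the 2 libraries, and had the highest value of replicate 3. Its 5′ end peak reached 50.03 in replicate 2 and 173.2 in replicate 3 (chr2:173659058-173660199 in replicate 3), the 99.77th and 99.98th percentiles of the lists. *Rab5a*, *Rab5b* and *Rab5c* encode the 3 forms of Rab5, the organiser of early endosome fusion, and all of them were marked. *Rab5b* had values of 40.0 and 115.9 in replicates 2 and 3, and *Rab5a* 38.0 and 56.9. *Rab5c* was lower in replicate 2, at 15.6, and reached 73.7 in replicate 3. The order of the 3 Rab5 genes therefore differed between the libraries, apart from *Rab5b* being the highest in each.

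The Rab5 genes also differed in the number of shared regions around them. *Rab5a* had a single shared region in its window, that at the 5′ end. *Rab5b* had 3, of which the other 2 lay at the 5′ ends of *Suox* and *Cdk2*. *Rab5c* had 4, including 2 inside the gene body more than 2.5 kb from every 5′ end (chr11:100719249-100719717 and chr11:100721217-100722059), with fold enrichments of 10.8 and 12.2 in replicate 2 and of 14.9 and 18.1 in replicate 3. *Rab21*, which binds integrins on endosomes, had 5′ end values of 23.0 and 44.3. *Rab31*, a Rab5 relative that moves cargo between the trans-Golgi network and endosomes, had the weakest promoter of the group, 11.5 in replicate 2 and 22.9 in replicate 3. Its gene body, described below with the distal regions, carried the most shared regions of any Rab gene.

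In the recycling group, 5 of 9 genes (55.6%) were marked at the 5′ end in both libraries, beside 44.5% of all genes. *Rab14*, which acts between the Golgi and endosomes, had values of 39.9 in replicate 2 and 125.0 in replicate 3. *Rab11a* and *Rab11b* serve the slow recycling endosome. *Rab11b* had 37.1 and 115.9, whereas *Rab11a* had 12.9 and 46.9, the 65.4th and 90.6th percentiles. *Rab4a* and *Rab4b*, of the fast recycling route, were further apart. *Rab4b* had 33.0 and 96.3 with 4 shared regions in its window, while *Rab4a* had no replicate 2 peak and a value of 15.3 in replicate 3. *Rab35*, which returns cargo from endosomes to the plasma membrane, had 25.1 and 67.7. The remaining 3 genes of this group, *Rab15*, *Rab17* and *Rab25*, had no 5′ end peak in either library; *Rab17* and *Rab25* act mainly in epithelial cells. Both nevertheless had shared regions in their windows. Of the 3 at *Rab25*, 2 were at 5′ ends of *Mex3a* and *Lamtor2*, while the single one at *Rab17* lay 7.22 kb from the 5′ end (chr1:90974885-90975559), with 22.2 and 72.5.

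Of the 4 late endosomal Rab genes, 2 (50%) were marked at the 5′ end in both libraries, near the 44.5% of all genes. These were *Rab7* and *Rab9*. *Rab7*, which drives the maturation of late endosomes and their fusion with lysosomes, had values of 18.98 in replicate 2 and 61.2 in replicate 3 and 3 shared regions. *Rab9*, of the route from late endosomes to the trans-Golgi network, had 15.6 and 46.9. *Rab7b* had 2 replicate 3 peaks in its window, neither of them at a gene end and neither shared, and *Rab9b* had no peak of either library.

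The ER and Golgi Rab genes formed the largest group, with 9 of 14 (64.3%) marked at the 5′ end in both libraries, beside 44.5% of all genes. *Rab1a*, which carries vesicles from the ER to the Golgi, ranked first in the family by the lower of its 2 percentiles, at 50.8-fold in replicate 2 and 147.8-fold in replicate 3, the 99.8th and 99.9th percentiles. Its close relative *Rab1b* had 14.6 and 43.1. *Rab2b*, of transport between the Golgi and ER, had 39.7 and 118.9, and *Rab2a* had 21.0 and 64.8. The values of *Rab2a* are at a gene end with no listed direction, and the *Rab2b* peak also lies at the 5′ end of *Tox4*. *Rab1a* exceeded *Rab1b* in each library. *Rab30* reached 30.6 and 139.6, and *Rab18*, known for its place on lipid droplets and the ER, 35.2 and 127.0. *Rab6a*, of retrograde Golgi traffic, had 27.1 and 64.8, whereas its relative *Rab6b* had no replicate 2 peak and 14.3 in replicate 3. *Rab39* was likewise marked in replicate 3 alone, at 10.4, and *Rab39b* had no peak. The other 2 genes without a 5′ end peak, *Rab19* and *Rab33a*, had shared regions at the 5′ ends of *Slc37a3* and *Aifm1*. That at *Rab33a* (chrX:48513204-48513831) also touched the outer edge of the *Rab33a* gene body, which reaches upstream of the listed 5′ end.

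Of the 12 exocytic Rab genes, 9 (75%) were marked at the 5′ end in both libraries, beside 44.5% of all genes. The 9 include *Rab26* and *Rab37*, which have no listed 5′ end and whose peaks lie at 5′ ends of neighbours, and 7 remain without them. Of these 7, *Rab13* has its own 5′ end 67 bp from that of *Rps27*, so its peak lies at both. *Rab8a* and *Rab8b*, which act in traffic from the Golgi to the plasma membrane, had values of 48.1 and 31.9 in replicate 2 and of 65.3 and 79.5 in replicate 3. Their order was reversed between the libraries. *Rab10*, of insulin-responsive and basolateral exocytosis, had 31.1 and 139.0, with 4 shared regions in its window. *Rab13*, linked to tight junctions, had 14.6 and 53.1.

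The Rab27 and Rab3 genes of regulated secretion had lower 5′ end values than the *Rab8a*, *Rab8b* and *Rab10* genes in each library. *Rab27a*, which docks secretory granules and, in endothelial cells, Weibel-Palade bodies, had a 5′ end value of 8.13 in replicate 2 and 17.9 in replicate 3, the 39.6th and 72.3rd percentiles. The 5 shared regions in its window included a stronger one inside the gene (chr9:73068219-73069099), with 14.0 and 38.1, which lay 4.07 kb from the nearest 5′ end. *Rab3d*, also found on secretory granules, had 15.6 and 58.9 at the 5′ end and 4 shared regions. Of these, 1 lay 2.70 kb from the 5′ end of *Tmem205* and had 16.2 and 58.7. *Rab3a*, the synaptic vesicle form, had 16.2 and 34.5. *Rab3b* had 5.90 in replicate 3 alone, the lowest 5′ end value among the Rab genes, and *Rab3c* had 2 replicate 3 peaks in a window of a 226.8 kb gene, neither at the 5′ end. *Rab27b* had no peak. *Rab26* and *Rab37*, with 42.1 and 22.4 in replicate 2 and 105.2 and 91.8 in replicate 3, have no listed 5′ end, and each peak lay at the 5′ end of a neighbour, *Traf7* and *Slc9a3r1*, so neither can be credited to the Rab gene.

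The groups of lysosome-related organelles and the cilium held some of the weakest Rab promoters. *Rab29* had 10.8 in replicate 2 and 45.3 in replicate 3. *Rab32*, which sorts cargo to melanosomes and other lysosome-related organelles, had 7.32 and 25.9, and its partner *Rab38* had no peak. The cilium group held *Rab28*, with 31.2 and 59.3, *Rab23*, a brake on Hedgehog signalling, with 6.78 and 15.0, and *Rab34*, with 6.49 in replicate 3 alone. *Rab23* had the lowest of the lower percentiles of all 40 genes marked in both libraries, although *Rab40b* had a lower value in replicate 3.

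Of the other 8 genes, *Rab40c* stood far above the rest. *Rab40c*, of the ubiquitin ligase-binding Rab40 group, had 49.5 and 128.6, and its relative *Rab40b* had 8.13 and 14.2. *Rab24*, linked to autophagy, and *Rab12*, which sends transferrin receptor to degradation, had 9.49 each in replicate 2 and 32.2 and 31.3 in replicate 3. *Rab36* and *Rab42* were marked in replicate 3 alone, at 17.9 and 16.6. *Rab20*, found on phagosomes, had 8.13 in replicate 2 within 1 kb of the 5′ end. In replicate 3 a single peak of 2360 bp covered the 5′ end (chr8:11476538-11478897), with 53.1 at a summit 1715 bp downstream. The strongest replicate 2 peak under it, also farther than 1 kb from the 5′ end, had 28.2, so 8.13 and 53.1 belong to different sites. A second shared region inside *Rab20* (chr8:11463342-11465934), 12.7 kb from the 5′ end, was stronger, with 32.1 and 87.8. The promoter was thus not the most enriched site at *Rab20*.

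In all, 6 Rab genes had no peak of either library in the window, namely *Rab9b*, *Rab15*, *Rab27b*, *Rab38*, *Rab39b* and *Rab44*. Another 5 had replicate 3 peaks alone in the window, *Rab3c*, *Rab4a*, *Rab6b*, *Rab7b* and *Rab39*. Over all protein-coding genes, 58.6% had a replicate 2 peak in the window and 69.9% a replicate 3 peak. Among Rab genes these shares were 81.4% and 89.8%. The 7 genes with a 5′ end peak in replicate 3 alone (*Rab3b*, *Rab4a*, *Rab6b*, *Rab34*, *Rab36*, *Rab39* and *Rab42*) had fold enrichments there of 5.90 to 17.9. Among the genes marked in both, 3 had replicate 3 values in that range, *Rab23*, *Rab40b* and *Rab27a*, whose replicate 2 values were 6.78, 8.13 and 8.13. Whether the replicate 3 peaks fell short in replicate 2 through its shorter list cannot be told apart from a difference between the samples.

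With each region counted once, the Rab windows held 112 shared regions in all and a median of 2 a gene, beside a median of 1 over all protein-coding genes. The Rab median fell to 1, equal to that of all genes, at −log10 q of at least 5, with equally long lists and in the gene body alone. Of the 112, 42 lay within 1 kb of the 5′ end of the Rab gene itself, or of either end where none is listed. Their median fold enrichments were 21.7 in replicate 2 and 59.1 in replicate 3. The 42 include the regions of *Rab26* and *Rab37*, which lie at 5′ ends of neighbours and cannot be credited to the Rab gene. At 5′ ends of other protein-coding genes, or either end where none is listed, there were 20, with medians of 12.2 and 29.4. Another 31 lay in the gene body, with 8.13 and 18.1, and 19 in the flanks, with 8.79 and 20.5. By these medians the sites at Rab 5′ ends, counted in this way, were the strongest. They were also the widest, with a median width of 1225.5 bp against 564 bp in gene bodies.

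Distal regions, farther than 2.5 kb from the 5′ end of every protein-coding gene (from both ends where none is listed), made up 45 of the 112 and lay at 24 Rab genes (40.7%), beside 23.9% of all genes. Of the shared regions in Rab windows 40.2% were distal, beside 47.3% of the 20019 in the windows of all protein-coding genes. The counts moved with the lists, to 154 distal of 273 peaks with replicate 3 alone, and to 26 of 54 with reciprocal overlap of 50%. Their median fold enrichments were 8.79 in replicate 2 and 18.1 in replicate 3, beside 8.81 and 20.7 over the 9465 distal shared regions in all gene windows. *Rab31* alone had 7 of the 45, all within its 121.0 kb gene body, and *Rab8b* had 5. The 2 strongest at *Rab31* were chr17:65737019-65738164, with 23.8 in replicate 2 and 52.0 in replicate 3, and chr17:65662511-65663646, with 28.5 and 46.6. Each exceeded the *Rab31* promoter in both libraries. At *Rab8b* the order was the other way, with 13.5 and 42.2 at the strongest distal region (chr9:66886685-66887191) against 31.9 and 79.5 at the promoter. The strongest distal region in any Rab window, with 46.8 and 109.2 (chr5:115652646-115653549), lay outside *Rab35*, 4.47 kb from an end of *Bicdl1*, for which no 5′ end is listed, and 21.1 kb from the 5′ end of *Rab35*. Which gene such a region serves was not measured.

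**Figure D3:**
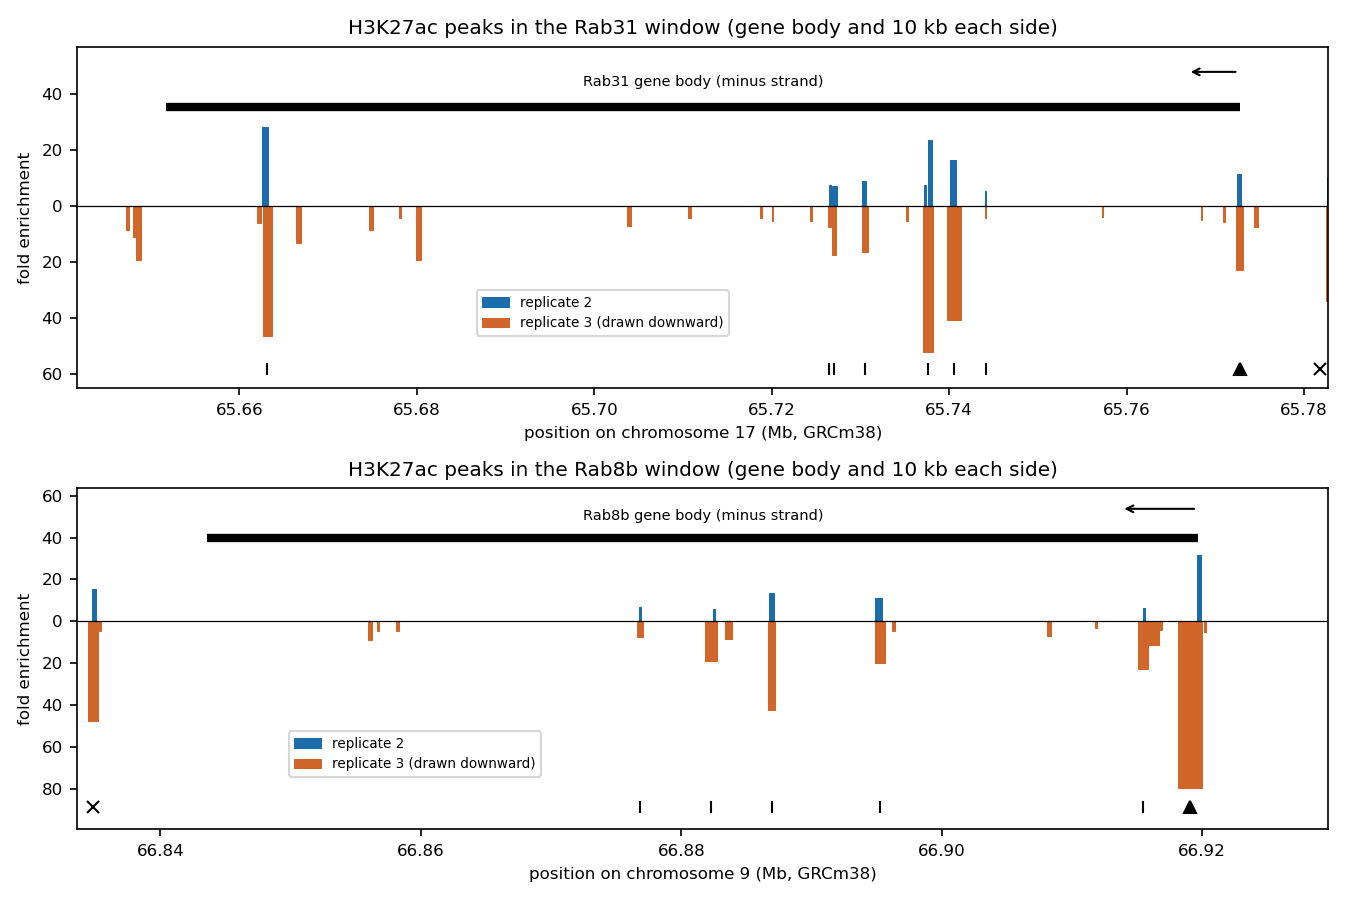
Peaks in the windows of *Rab31* (chromosome 17) and *Rab8b* (chromosome 9), drawn to scale by position (x axis, Mb) with their fold enrichment (y axis) in replicate 2 (upward) and replicate 3 (downward); black bars are gene bodies and arrows the direction of transcription. Symbols under the peaks mark shared regions at the gene's own 5′ end (triangles), at a 5′ end, or an end without listed direction, of another gene (crosses) and elsewhere (ticks): the *Rab31* body holds 7 ticks and that of *Rab8b* 5.

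Neighbouring genes limit how far a peak can be credited to a Rab gene. The windows of 29 Rab genes contained an annotated start of another protein-coding gene, or either end where no 5′ end is listed for it. At 6 of the 40 genes marked in both libraries, the 5′ end peak also lay within 1 kb of a listed 5′ end of another gene. In 4 of these the 5′ ends were close together, 36 bp for *Rab6a* and *Mrpl48*, 67 bp for *Rab13* and *Rps27*, 75 bp for *Rab24* and *Prelid1*, and 249 bp for *Rab2b* and *Tox4*. The other 2 were *Rab26* and *Rab37*, described above. Ends of genes with no listed 5′ end are not among these 6, and an end of *Pmel* lay within 1 kb of the 5′ end of *Rab5b* and an end of *Klc2* within 1 kb of that of *Rab1b*. Without these 6, the count of Rab genes marked at the 5′ end in both libraries was 34 of 53. This selection was made after the values were seen and takes out marked genes alone, so the count cannot be set against the share of all genes.

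The position of the peaks on Rab promoters was like that on other promoters. With strand known, the summit of the strongest peak was upstream of the nearest listed 5′ end in 27 of 35 genes in replicate 2 (77.1%) and in 30 of 40 in replicate 3 (75%), near the 73.7% and 74.8% of all protein-coding genes. The median summit was 74 bp upstream in replicate 2 and 67 bp upstream in replicate 3, beside 52 bp and 49 bp over all protein-coding genes with such a peak. Rab 5′ end peaks were a median of 523 bp wide in replicate 2 and 1140.5 bp in replicate 3, beside 478 bp and 923 bp. Over the 40 genes marked in both, the fold enrichments of the 2 libraries had a Spearman correlation of 0.85. This describes agreement in rank across genes that share the same libraries and are not independent replicates. The ratio of replicate 3 to replicate 2 had a median of 2.97 at Rab genes, beside 2.87 over all genes marked in both, and was lowest at *Rab8a*, 1.36.

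The genes that load, switch and read Rab proteins were counted in the same way. Of 120 such genes, 91 (75.8%) had overlapping peaks of both libraries at the 5′ end, beside 44.5% of all protein-coding genes. The exchange factors, which start the Rab cycle, had 33 of 37 (89.2%), and the GTPase-activating proteins, which end it, 29 of 33 (87.9%). Effectors had 24 of 44 (54.5%) in both libraries, and a further 10 in replicate 3 alone, a class that held 9.42% of all genes. No difference between these groups was tested. The 10 effector genes without any 5′ end peak, named after their values were seen, were *Rab11fip4*, *Sytl1*, *Sytl3*, *Sytl4*, *Sytl5*, *Mlph*, *Rph3a*, *Rph3al*, *Unc13d* and *Rims1*. The other 34 of the 44 effectors had a replicate 3 peak there, beside 54.0% of all protein-coding genes, so effectors lacked a peak less often than genes at large.

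Genes of Rab prenylation and recycling differed widely in promoter strength. *Gdi2*, a GDP dissociation inhibitor that extracts Rab proteins from membranes, had 23.7 in replicate 2 and 69.8 in replicate 3 and 3 shared regions. *Rabggtb*, the catalytic subunit of Rab geranylgeranyl transferase, had 21.4 and 68.2, and *Rabggta*, the other subunit, 5.42 and 22.5. *Chm*, the escort protein that presents Rab proteins to that enzyme, had 7.46 and 16.0, and its relative *Chml* had no 5′ end peak and 1 shared region in the window.

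The exchange factors and GTPase-activating proteins with the most shared regions were long genes, whose windows can hold more of them. *Rin3*, an exchange factor for Rab5 proteins with a gene of 108.0 kb, had 11 in its window, 9 of them distal, with a 5′ end value of 7.46 in replicate 2 and 18.9 in replicate 3. *Rin2* (115.9 kb), its relative, had 7, as did *Trappc9* (471.6 kb) and *Denn2b* (179.8 kb). The 5′ end values were 8.81 and 43.4 for *Rin2* and 27.8 and 99.0 for *Trappc9*, a subunit of the TRAPP complex, while *Denn2b* had 9.17 in replicate 3 alone. Among GTPase-activating proteins, *Tbc1d30* (87.8 kb) had 7 shared regions and *Tbc1d1* (195.2 kb), known for insulin-responsive glucose transporter traffic, 6. Their 5′ end values were 21.4 and 37.5 for *Tbc1d30* and 31.9 and 90.6 for *Tbc1d1*. Among effectors, *Micall2*, which binds Rab13, and *Bicd2*, a dynein adaptor for Rab6, had 5 each, and their 5′ end values were 17.1 and 58.0 and 40.0 and 117.7.

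Promoter sequences were compared over the 250 bases before to 50 after each listed 5′ end, 60 promoters for the 48 Rab genes and 21263 for all protein-coding genes with a listed 5′ end. A gene with several listed 5′ ends was counted at each, and some of these stretches overlap, as at *Rab43*. The 60 are therefore not independent units. Rab promoters had a median of 19.5 CG dinucleotides, beside 13 for all. The GC box GGGCGG, on either strand, was in 41 of 60 (68.3%), beside 46.2% of all. CCAAT was in 43.3%, beside 38.2%, and the palindromic E box CACGTG in 10%, beside 7.84%. The ETS motif CCGGAAGT was in 3.33%, beside 5.15%, the AP-1 motif TGACTCA in 5%, beside 4.66%, and TATAAA in 6.67%, beside 12.6%. Of these motifs the GC box had the widest gap in percentage points between Rab and all promoters. As a ratio, TATAAA and the ETS motif differed more, both being rarer in Rab promoters. No motif contains another, though neighbouring matches can share bases.

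The CG content of Rab promoters went with the mark as it does across the genome. The 42 Rab promoters with a peak of each library within 1 kb had a median of 23.5 CG, and the 18 without had 9. Over all protein-coding genes the medians were 23 for 9433 such promoters and 5 for the other 11830. A GC box was in 76.2% of the 42 and in 50% of the 18, beside 69.9% and 27.3% over all genes.

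The RefSeq sequence of GRCm38.p6 is shown for 6 Rab promoters that span the range of the values, each as the 250 bases before a listed 5′ end in the direction of transcription. Capitals mark the GC box, CCAAT and the E box on either strand (CCGCCC is the reverse complement of the GC box and ATTGG that of CCAAT), and adjoining matches run together. *Rab22a* (chr2:173659595-173659844, plus strand) and *Rab1a* (chr11:20201162-20201411, plus strand) had the highest 5′ end ranks by the lower percentile and hold 7 and 3 GC boxes. *Rab5a* (chr17:53478984-53479233, plus strand) holds 2 E boxes. *Rab31* (chr17:65772753-65773002, minus strand) and *Rab27a* (chr9:73044560-73044809, plus strand, the first of its 2 listed 5′ ends and the one with the peak) are the weaker promoters of genes with many shared regions. *Rab39b* (chrX:75578232-75578481, minus strand) had no peak in either library and holds none of the 3 motifs.
Rab22a: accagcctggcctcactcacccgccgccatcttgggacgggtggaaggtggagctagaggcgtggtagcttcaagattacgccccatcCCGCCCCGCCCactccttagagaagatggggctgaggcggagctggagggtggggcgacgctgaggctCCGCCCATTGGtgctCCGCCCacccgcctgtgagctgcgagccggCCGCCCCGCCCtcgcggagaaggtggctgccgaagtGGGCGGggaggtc
Rab1a: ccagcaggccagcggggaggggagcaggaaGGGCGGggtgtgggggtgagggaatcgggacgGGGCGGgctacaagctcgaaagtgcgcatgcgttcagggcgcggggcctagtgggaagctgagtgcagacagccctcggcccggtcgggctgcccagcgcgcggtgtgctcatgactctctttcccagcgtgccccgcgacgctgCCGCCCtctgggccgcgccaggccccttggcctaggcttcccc
Rab5a: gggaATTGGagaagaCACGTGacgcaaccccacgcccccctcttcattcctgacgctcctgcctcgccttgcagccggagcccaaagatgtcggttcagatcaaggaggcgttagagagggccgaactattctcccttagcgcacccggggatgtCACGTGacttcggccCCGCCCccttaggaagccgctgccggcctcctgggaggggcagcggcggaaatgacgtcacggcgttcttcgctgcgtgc
Rab31: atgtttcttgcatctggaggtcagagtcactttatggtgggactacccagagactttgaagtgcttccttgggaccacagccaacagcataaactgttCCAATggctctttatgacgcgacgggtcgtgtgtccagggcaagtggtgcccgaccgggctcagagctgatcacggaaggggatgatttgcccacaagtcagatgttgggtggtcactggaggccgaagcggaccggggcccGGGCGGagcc
Rab27a: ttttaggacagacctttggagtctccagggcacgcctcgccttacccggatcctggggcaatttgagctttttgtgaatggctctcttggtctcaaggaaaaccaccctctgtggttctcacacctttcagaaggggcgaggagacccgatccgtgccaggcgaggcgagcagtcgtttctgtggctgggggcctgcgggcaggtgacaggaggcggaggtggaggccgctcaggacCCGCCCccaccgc
Rab39b: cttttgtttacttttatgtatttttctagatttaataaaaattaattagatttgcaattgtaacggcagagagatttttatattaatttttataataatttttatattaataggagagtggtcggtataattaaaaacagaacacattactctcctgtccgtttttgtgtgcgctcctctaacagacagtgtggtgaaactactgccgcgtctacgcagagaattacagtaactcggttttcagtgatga
The *Rab22a* sequence has 21 CG dinucleotides and *Rab39b* 8. A match to these letters is a description of the sequence and does not show that a factor binds there.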

How the data were processed

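H3K27ac ChIP-seq was measured in 2 LSEC libraries. Per the labels, chromatin was sonicated and libraries made with a ligation kit, whereas the methods of the study describe TAF-ChIP-seq. The submitters' processing notes name cutadapt 0.4.4, BWA 0.7.17, Picard 1.67, MACS2 2.0.10, bedtools 2.27.1 and mm10; whether the input entered the calls was not given in the sources used here. The authors deposited 1 peak list per library, giving each peak a score, a fold enrichment (a ratio), and its p and q as −log10 values. No depth was given, and the fold enrichments were used as deposited.

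Gene bodies and 5′ ends came from RefSeq (GRCm38.p6), which has no exons in the tables used, so exon and intron were not told apart. Overlaps were computed in Python 3.11.15 with numpy 2.4.6 and pandas 2.3.3, and tested on simulated peaks; plots used matplotlib 3.10.9. Fold enrichment was the strongest peak within 1 kb of a 5′ end. No test was made: counts and medians stand beside those over all protein-coding genes. Values in each library were given for the 6 Rab genes with the most shared regions (with ties), the 6 highest and 6 lowest at the 5′ end by the lower of the 2 percentiles, those with a 5′ end peak in 1 library, and 10 genes named by role; other values were added after they were seen. For machinery lists these were the 2 genes with the most shared regions (with ties) and prenylation and recycling genes. Members and lists were chosen with earlier results of these data known. Alternatives changed the peak threshold, list length, overlap, window, distance and libraries used.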

Additional observations from a re-analysis of the deposited data

How the results depend on the processing

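The depth of the libraries was unknown and limits each count: a gene without a listed peak may carry the mark below the threshold of the caller. No paired analysis was possible because no result comes from a test between groups, and no input list was analysed here. With each library taken alone, Rab genes with a region in the window numbered 48 to 53, those with a 5′ end peak 40 to 47 and machinery genes 91 to 107. Regions in Rab windows numbered 125 to 273, distal ones 50 to 154, and the median a gene was 2 to 4, the higher value coming from replicate 3 alone in each case.

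Requiring reciprocal overlap of 50% lowered the Rab genes marked at the 5′ end from 40 to 21 (35.6%, beside 22.1% of all genes), the machinery genes from 91 to 39, the shared regions to 54, the distal ones to 26 and the median to 1; replicate 3 peaks are wider, and the cause was not tested further. With the gene body alone there were 72 shared regions and a median of 1, and with 50 kb on each side 237 shared regions, 91 distal ones and a median of 4, as a smaller or larger window implies. The median was also 1, equal to that over all genes, at −log10 q of at least 5 and with equally long lists. Of 19 Rab windows with no end of another protein-coding gene, 13 (68.4%) had a shared region, beside 37.5% of all such windows. Over the counts and motif shares recomputed under settings other than leaving out a library, 30 values stayed within 1.5 times the reported count or within the binomial interval of the share, and 13 did not.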

Other observations

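Some other small GTPase families, chosen by symbol after the Rab values were seen, were counted at the 5′ end on the same measure; not every family is given. Peaks of both libraries marked 22 of 28 Arf, Arl and Sar1 genes (78.6%), which act in coat assembly and membrane traffic, with median fold enrichments of 21.7 in replicate 2 and 58.1 in replicate 3. The Ras, Rap and Ral genes of growth and adhesion signalling had 12 of 13 (92.3%). The share over all protein-coding genes was 44.5%. No difference between the families was tested.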
